A study of Mus musculus with 9 samples.

Results

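The genes described here are 10 ligands and receptors of the vascular endothelial growth factor (VEGF) and angiopoietin systems: Vegfa, Vegfb, Vegfc, Kdr, Flt1, Nrp1, Nrp2, Tek, Tie1 and Angpt1. They were taken by symbol from a table of 36172 gene features, and 10 of 10 were found, expressed and tested. RNA was sequenced from the medial prefrontal cortex, a frontal brain region, of DBA2/J mice, an inbred strain, in 9 libraries. NS are non-stressed mice given saline. SA:ANH-vehicle and SA:ANH-KDM5Ci are mice put through 5 days of social defeat, a stress in which a mouse repeatedly meets an aggressor, and assigned by the submitters to a subtype named SA:ANH. The former received vehicle, which the treatment labels name as saline, and the latter an inhibitor of KDM5C, an enzyme that removes methyl groups from lysine 4 of histone H3. Each group had 3 libraries. What SA:ANH stands for, the compound, its dose and timing, and the age of the mice are not in the labels used here. The labels do not say whether each library stands for its own mouse. The p-values thus reflect library-to-library spread alone, part of which may be technical.

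VEGF-A, the main growth signal of blood vessels, acts on endothelial cells chiefly through the receptor tyrosine kinase KDR (VEGFR2). FLT1 (VEGFR1) binds VEGF-A tightly but signals weakly, and it also exists as a soluble form that captures ligand. VEGF-B binds FLT1, VEGF-C is best known for lymphatic growth, and neuropilins serve as co-receptors for both VEGF and class 3 semaphorins. Angiopoietin-1 activates the receptor TEK (TIE2) and keeps vessels quiet and tight, with TIE1 as its partner receptor. In brain, most VEGF-A comes from astrocytes and neurons, while KDR, FLT1, TEK and TIE1 are carried mainly by endothelium.

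The promoters of Kdr, Flt1 and Vegfa are shown because the results below turn on a receptor that was lower, its sister receptor that was not called, and their shared ligand. Each is the stretch of 250 bases before the start that the RefSeq promoter table (GRCm38.p6) gives, written 5′ to 3′ on the gene's own strand. For Kdr and Flt1 the window lies inside the RefSeq gene span given below, which runs further upstream than that start. All 3 genes lie on the minus strand. Capitals mark the core GGAA, or TTCC on the other strand, that ETS family transcription factors recognise.
Kdr, chr5:75978456-75978705: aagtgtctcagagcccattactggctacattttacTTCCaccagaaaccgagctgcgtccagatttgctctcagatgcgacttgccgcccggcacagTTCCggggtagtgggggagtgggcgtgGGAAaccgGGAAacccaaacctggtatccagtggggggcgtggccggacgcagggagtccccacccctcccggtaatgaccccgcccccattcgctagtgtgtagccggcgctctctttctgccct
Flt1, chr5:147726012-147726261: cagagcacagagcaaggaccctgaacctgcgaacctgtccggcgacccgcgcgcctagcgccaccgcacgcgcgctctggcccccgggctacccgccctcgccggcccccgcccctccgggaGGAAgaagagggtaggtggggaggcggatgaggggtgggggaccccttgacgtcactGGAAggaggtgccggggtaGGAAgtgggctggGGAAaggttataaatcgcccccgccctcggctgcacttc
Vegfa, chr17:46032378-46032627: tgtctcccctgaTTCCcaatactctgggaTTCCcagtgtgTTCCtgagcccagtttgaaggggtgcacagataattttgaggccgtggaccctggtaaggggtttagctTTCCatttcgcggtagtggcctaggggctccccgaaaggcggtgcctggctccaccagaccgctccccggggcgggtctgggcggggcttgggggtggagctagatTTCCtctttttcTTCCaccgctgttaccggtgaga
The core occurred 4 times in the Kdr window, 4 times in that of Flt1 and 6 times in that of Vegfa. It is common: 93.4% of the 32851 promoter windows of this length hold at least 1, with a mean of 2.91. The core of the hypoxia response element, ACGTG or GCGTG on either strand, occurred 2 times in the Kdr window, at -131 and -89 from the start, 1 time in that of Flt1, at -184, and not in this Vegfa window. A second RefSeq window of Vegfa, chr17:46025164-46025413, lies inside the gene span, with 218 of its 250 bases in GENCODE exons. It held 2 of these cores, at -218 and -211 from its start. Of all windows, 38.6% hold this core. GC content was 61.6%, 70.4% and 59.2% for Kdr, Flt1 and Vegfa, against a median of 52.4%. CpG pairs numbered 16, 23 and 11, against a median of 6. A match is a run of letters and shows no binding. RefSeq windows were matched for 9 of the 10 genes.

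Libraries held from 29845097 to 42196472 counts. Levels are given as CPM (counts scaled to a fixed library total) on scaled library sizes. Markers of cortical excitatory neurons were present in every library, with Slc17a7 from 1481 to 1687 CPM and Tbr1 from 187 to 201 CPM. So were the endothelial markers Pecam1, from 18.9 to 25.4 CPM, and Cdh5, from 13.5 to 18.3 CPM. Kdm5c itself had a log2 fold change of -0.13 (SE 0.05) in SA:ANH-KDM5Ci against SA:ANH-vehicle (adjusted p = 0.222). A count of its RNA does not check the action of an enzyme inhibitor.

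Per length, the ligands Vegfb and Vegfa stood above all receptors, and the ligands Vegfc and Angpt1 below them in NS. On CPM per kilobase of exon, in NS, Vegfb came first at 34.0 ± 2.39 (SD, n = 3) and Vegfa next at 18.1 ± 1.22. Flt1 at 4.16 ± 0.25, Tek at 3.90 ± 0.37 and Nrp1 at 3.74 ± 0.37 followed, with ranges that overlapped between neighbours. Tie1 at 2.33 ± 0.24, Nrp2 at 2.31 ± 0.24 and Kdr at 2.23 ± 0.06 overlapped in the same way. Vegfc at 2.07 ± 0.06 and Angpt1 at 1.61 ± 0.32 CPM per kilobase lay lowest, each apart from its neighbour above. Kdr, 8th of 10 in NS, was 9th in SA:ANH-vehicle at 1.84 ± 0.22 and last in SA:ANH-KDM5Ci at 1.03 ± 0.10 CPM per kilobase, where its range overlapped that of Angpt1 at 1.175 ± 0.33. Vegfb and Vegfa held the top places in all 3 groups, with ranges apart from each other and from the gene below.

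**Figure D1:**
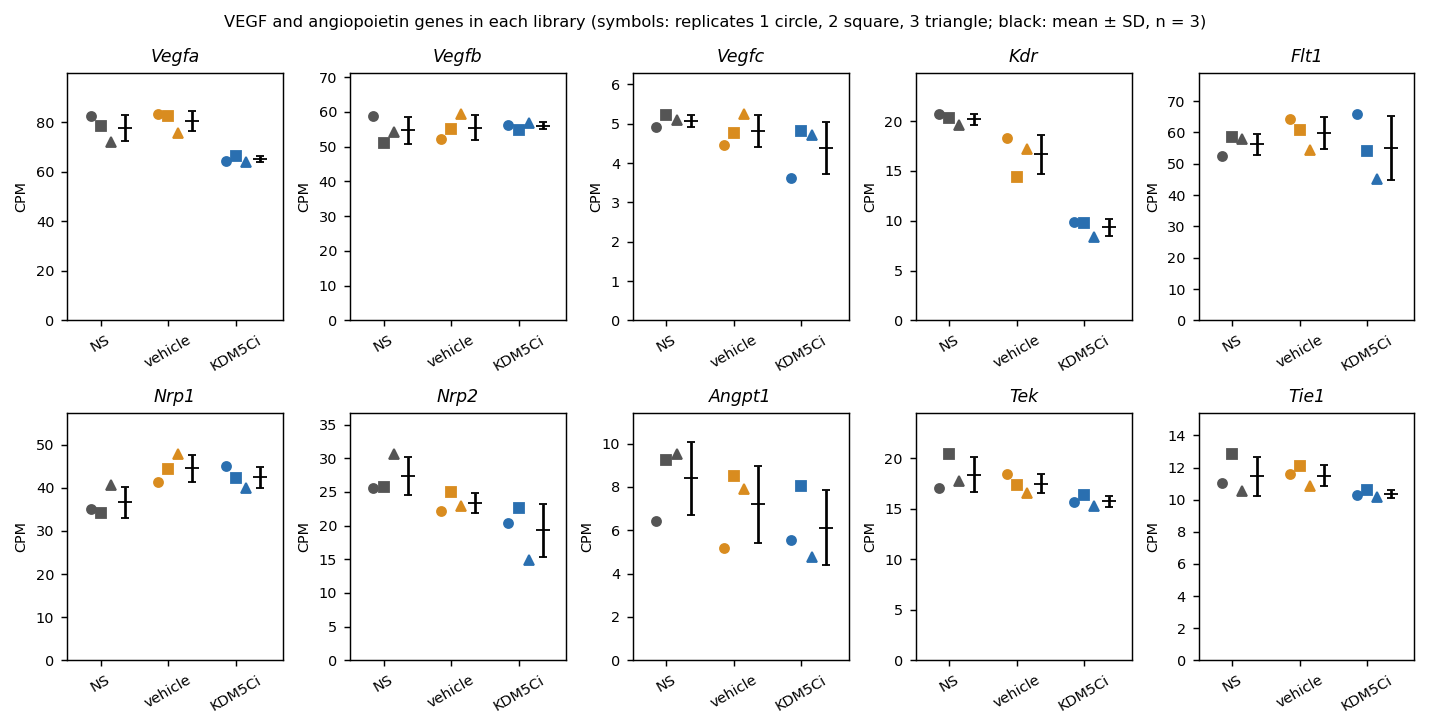
CPM (linear axis from 0) of the 10 genes in each of the 9 libraries, by group, with SA:ANH-vehicle and SA:ANH-KDM5Ci shortened to vehicle and KDM5Ci; symbols are replicates and black bars are the mean ± SD (n = 3). Kdr steps down from NS (19.6 to 20.7) to vehicle (14.4 to 18.3) to KDM5Ci (8.31 to 9.91 CPM), and Vegfa is lower in KDM5Ci than in both other groups.

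The design gives 3 comparisons: SA:ANH-vehicle against NS, SA:ANH-KDM5Ci against SA:ANH-vehicle, and SA:ANH-KDM5Ci against NS. The genes were selected on family membership, with results of these data in view. The low level of Kdr with the inhibitor was among those results, and which other measured values counted is not recorded. Values of SA:ANH-KDM5Ci against SA:ANH-vehicle are therefore given for these 10 genes as a description, without p-values. SA:ANH-KDM5Ci against NS uses the same inhibitor libraries and is not independent of that choice. The pathway and marker lists below were also chosen with earlier results of these data known. Their counts and p-values are not independent of that choice, and the share of all genes beside a count is no test. Any pair of comparisons shares a group of libraries. In whole tissue, fewer cells of a type and less RNA per cell cannot be told apart.

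Kdr, the main signalling receptor for VEGF-A, was the gene that differed most. It is NCBI gene 16542, on chromosome 5 from 75932827 to 75979072 of GRCm38, minus strand. The NS libraries had 20.7, 20.3 and 19.6 CPM, the SA:ANH-vehicle libraries 18.3, 14.4 and 17.2 CPM, and the SA:ANH-KDM5Ci libraries 9.91, 9.73 and 8.31 CPM. The 3 groups did not overlap in any pair, and the highest inhibitor library lay below the lowest vehicle library. Group means were 20.2 ± 0.55 CPM in NS, 16.6 ± 2.0 CPM in SA:ANH-vehicle and 9.32 ± 0.87 CPM in SA:ANH-KDM5Ci (SD, n = 3 each). Between inhibitor and vehicle the log2 fold change was -0.84 (SE 0.10), and the level dropped by 44.3%, as a description.

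Against NS, Kdr fell with the inhibitor by 1.12 on the log2 scale (SE 0.10), to 0.46 of its NS level (adjusted p = 2.37e-05, edgeR quasi-likelihood test, Benjamini-Hochberg over 15144 genes). The inhibitor libraries were in view when the genes were chosen, so this p-value is not independent of that choice. SA:ANH-vehicle against NS gave -0.28 (SE 0.09, adjusted p = 0.419), which did not pass although the libraries did not overlap. Without replicate 2 of SA:ANH-vehicle, its lowest library, that log2 fold change was -0.19.

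Flt1, the decoy-like VEGF receptor, was not called in any comparison. It is NCBI gene 14254, also on chromosome 5, from 147561604 to 147726438, minus strand, and the counts sum its isoforms, the soluble one included. NS libraries had 52.4, 58.4 and 57.8 CPM, SA:ANH-vehicle libraries 64.4, 60.7 and 54.3 CPM, and SA:ANH-KDM5Ci libraries 65.7, 54.0 and 45.2 CPM. The groups overlapped, and the inhibitor group spread most, with both the highest and the lowest of the 9 libraries. The log2 fold change of SA:ANH-KDM5Ci was -0.13 (SE 0.12) against SA:ANH-vehicle and -0.03 (SE 0.12, adjusted p = 0.914) against NS. SA:ANH-vehicle against NS gave 0.09 (SE 0.12, adjusted p = 0.908).

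The ratio of Kdr to Flt1 within a library compares the 2 receptors at equal depth, and is given without a test because both genes were chosen with results known. It was 0.394, 0.347 and 0.339 in the NS libraries, 0.284, 0.238 and 0.317 with vehicle, and 0.151, 0.180 and 0.184 with the inhibitor. No 2 groups overlapped in this ratio. Vegfa to Kdr, ligand to receptor, ran the other way, from 3.69 to 3.996 in NS, from 4.39 to 5.74 with vehicle and from 6.51 to 7.70 with the inhibitor, again without overlap. Both of these ratios contain Kdr, whose own groups did not overlap, so neither is a second result. Vegfa itself was lower with the inhibitor. Vegfa to Flt1, without Kdr, overlapped between all groups, with means of 1.39 ± 0.17 in NS, 1.35 ± 0.05 with vehicle and 1.21 ± 0.22 with the inhibitor. Tek to Tie1 stayed between 1.44 and 1.68 in all 9 libraries, with vehicle overlapping both other groups and the inhibitor libraries (1.496 to 1.53) below those of NS (1.55 to 1.68).

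**Figure D2:**
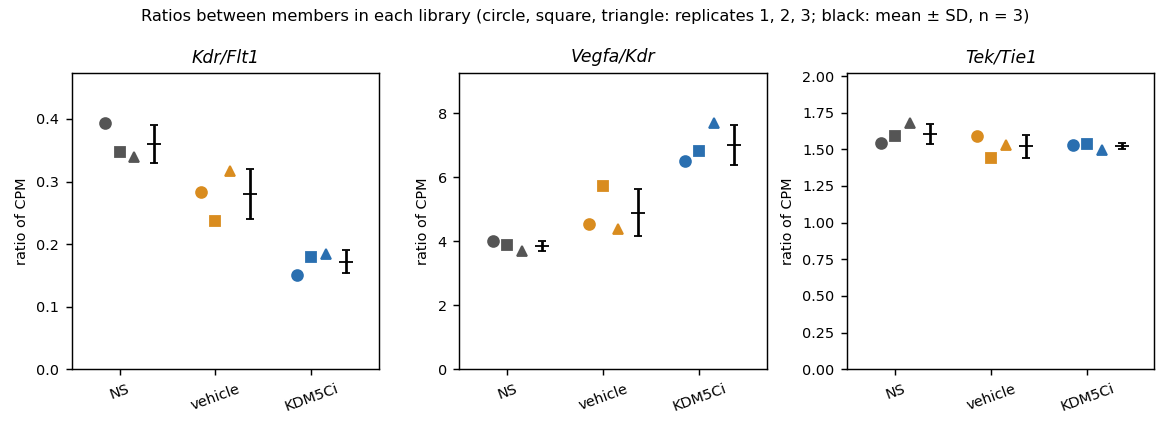
Ratios of CPM between pairs of genes in each library (linear axes from 0), by group, with SA:ANH-vehicle and SA:ANH-KDM5Ci shortened to vehicle and KDM5Ci; symbols are replicates and black bars the mean ± SD (n = 3). Kdr/Flt1 falls and Vegfa/Kdr rises from NS to vehicle to KDM5Ci with no overlap, while Tek/Tie1 of vehicle overlaps both other groups and KDM5Ci (1.496 to 1.53) lies just below NS (1.55 to 1.68).

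Among the ligands, Vegfa was lower with the inhibitor. It is NCBI gene 22339, on chromosome 17 from 46016993 to 46032377, minus strand. Its levels were 82.6, 78.5 and 72.2 CPM in NS, 83.1, 82.7 and 75.7 CPM with vehicle, and 64.5, 66.3 and 64.1 CPM with the inhibitor. All 3 inhibitor libraries lay below all 6 others, while NS and vehicle overlapped. The log2 fold change against SA:ANH-vehicle was -0.31 (SE 0.06), and the level dropped by 19.3%, as a description. Against NS it fell by 0.26 on the log2 scale (SE 0.06, adjusted p = 0.0253), and SA:ANH-vehicle against NS gave 0.05 (SE 0.06, adjusted p = 0.885). The call against NS is not independent of how the genes were chosen. It was lost without NS replicate 1 (adjusted p = 0.0716), NS replicate 2 (0.0952), SA:ANH-KDM5Ci replicate 1 (0.0881) or SA:ANH-KDM5Ci replicate 3 (0.0748).

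Vegfb, the FLT1 ligand, showed no called difference. It is NCBI gene 22340, on chromosome 19 from 6982472 to 6987651, minus strand. It had 58.7, 51.1 and 54.1 CPM in NS, 52.2, 55.0 and 59.3 CPM with vehicle, and 56.3, 54.9 and 56.8 CPM with the inhibitor. These ranges overlapped throughout, and its SD of log2 CPM over the 9 libraries, 0.07, was the smallest of the 10 genes. Log2 fold changes of the inhibitor group were 0.01 (SE 0.06) against vehicle and 0.03 (SE 0.06, adjusted p = 0.817) against NS, and that of vehicle against NS was 0.02 (adjusted p = 0.973).

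Vegfc, the ligand of lymphatic growth, was scarce. It is NCBI gene 22341, on chromosome 8 from 54077532 to 54186454, plus strand. NS libraries had 4.92, 5.21 and 5.08 CPM, vehicle libraries 4.45, 4.76 and 5.24 CPM, and inhibitor libraries 3.61, 4.82 and 4.71 CPM. Inhibitor replicate 1 was the lowest of the 9, and the inhibitor libraries lay below those of NS but not below those of vehicle. The log2 fold change was -0.13 (SE 0.13) against vehicle and -0.21 (SE 0.13, adjusted p = 0.410) against NS, and -0.08 (adjusted p = 0.929) for vehicle against NS.

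Neither neuropilin passed the test. Nrp1, co-receptor for VEGF-A and semaphorin 3A, is NCBI gene 18186, on chromosome 8 from 128358591 to 128505476, plus strand. It had 35.0, 34.1 and 40.7 CPM in NS, 41.3, 44.4 and 47.7 CPM with vehicle, and 45.0, 42.3 and 40.0 CPM with the inhibitor. Every vehicle library was above every NS library, though the gap between the nearest pair was small. Vehicle against NS gave a change of 0.28 on the log2 scale (SE 0.08, adjusted p = 0.303) and the inhibitor against NS 0.21 (SE 0.08, adjusted p = 0.153), so neither passed. Inhibitor and vehicle overlapped, at -0.07 (SE 0.08).

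Nrp2, the co-receptor for VEGF-C and semaphorin 3F, is NCBI gene 18187, on chromosome 1 from 62703317 to 62818692, plus strand. Its libraries had 25.6, 25.7 and 30.6 CPM in NS, 22.1, 25.0 and 23.0 CPM with vehicle, and 20.4, 22.6 and 14.96 CPM with the inhibitor. NS lay above both stressed groups, which overlapped each other. The inhibitor against NS gave -0.50 (SE 0.13, adjusted p = 0.0588), just short of the threshold. This value passed with DESeq2 (adjusted p = 0.00427), with limma-voom (0.0417), without robust moderation (0.0481) and without SA:ANH-KDM5Ci replicate 2 (0.0178). The inhibitor against vehicle gave -0.28 (SE 0.13), and vehicle against NS -0.23 (SE 0.13, adjusted p = 0.707).

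In the angiopoietin system, Angpt1, the activating ligand of TEK, is NCBI gene 11600, on chromosome 15 from 42424667 to 42676977, minus strand. It had 6.44, 9.23 and 9.50 CPM in NS, 5.18, 8.51 and 7.88 CPM with vehicle, and 5.55, 8.05 and 4.75 CPM with the inhibitor. All groups overlapped, and the spread within groups was wide. Log2 fold changes were -0.24 (SE 0.24) for inhibitor against vehicle, -0.46 (SE 0.24, adjusted p = 0.352) for inhibitor against NS and -0.23 (SE 0.24, adjusted p = 0.870) for vehicle against NS. Of its exon bases, 14.2% lie opposite the antisense gene Gm17473. Whether the authors' counting used strand is not stated, so reads of the pair cannot be told apart.

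Tek, the receptor for angiopoietins, is NCBI gene 21687, on chromosome 4 from 94739086 to 94874976, plus strand. Its levels were 17.0, 20.4 and 17.7 CPM in NS, 18.4, 17.4 and 16.6 CPM with vehicle, and 15.7, 16.3 and 15.2 CPM with the inhibitor. The inhibitor libraries were the 3 lowest of the 9. The log2 fold change was -0.15 (SE 0.08) against vehicle, -0.23 (SE 0.08, adjusted p = 0.144) against NS, and -0.07 (SE 0.08, adjusted p = 0.871) for vehicle against NS.

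Tie1, its partner receptor, is NCBI gene 21846, on chromosome 4 from 118471191 to 118489849, minus strand. It had 11.02, 12.8 and 10.5 CPM in NS, 11.6, 12.1 and 10.8 CPM with vehicle, and 10.3, 10.6 and 10.2 CPM with the inhibitor. The inhibitor libraries lay just below those of vehicle and overlapped those of NS. The log2 fold change was -0.15 (SE 0.09) against vehicle, -0.15 (SE 0.09, adjusted p = 0.402) against NS, and 0.00 (SE 0.09, adjusted p = 0.996) for vehicle against NS.

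**Figure D3:**
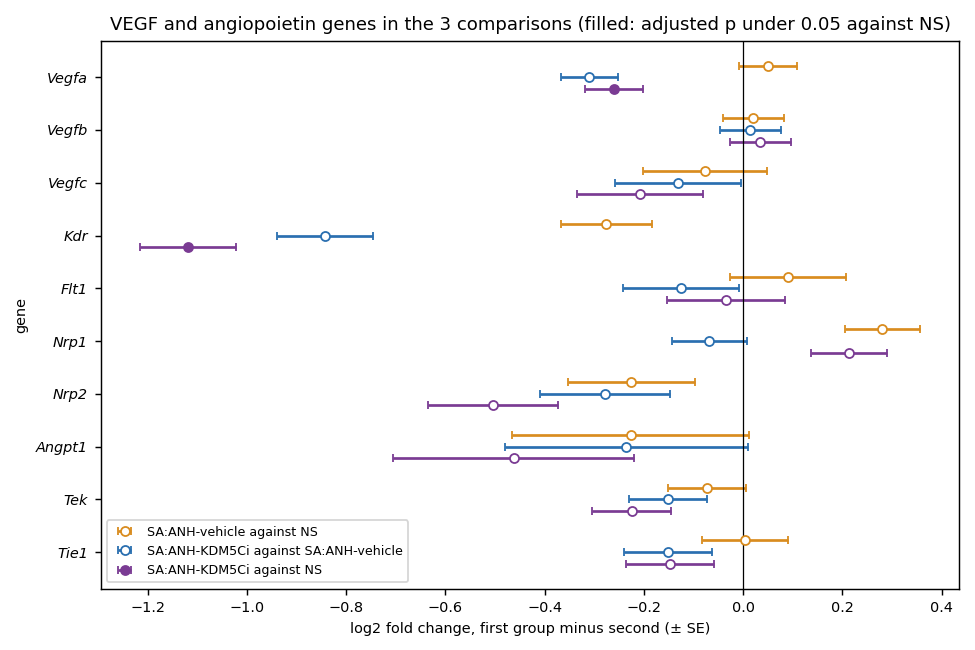
Log2 fold changes (first group minus second) of the 10 genes in the 3 comparisons, with bars for ± SE from the edgeR fit; filled points have an adjusted p under 0.05 against NS, and SA:ANH-KDM5Ci against SA:ANH-vehicle is drawn open as a description. Kdr at -1.12 and Vegfa at -0.26 are the filled points, and the Nrp1 points lie above 0 in both comparisons against NS. The inhibitor libraries were in view when the genes were chosen, so the filled points are not independent of that choice.

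Counted together, 0 of the 10 genes passed in SA:ANH-vehicle against NS by edgeR, where 0.0132% of the 15144 genes tested passed. At an unadjusted p under 0.05 there were 2 genes, Nrp1 higher and Kdr lower, and DESeq2 and limma-voom called 0. Libraries did not overlap for Nrp1, higher (8.29% of all genes), and for Kdr and Nrp2, lower (6.81%). SA:ANH-KDM5Ci against NS had 2 genes lower, Kdr and Vegfa, and 0 higher, against 2.11% of all genes lower and 1.86% higher. Their median log2 fold change was -0.22, against 0.00 for all genes. Libraries did not overlap for 5 of the 10 in that comparison, all lower, against 12% of all genes lower and 11.5% higher. Nothing is read from these counts or this median, since the inhibitor libraries were in view when the genes were chosen. In SA:ANH-KDM5Ci against SA:ANH-vehicle the same count was 2 lower, beside 1.62% of all genes lower and 0.891% higher. There 4 did not overlap, all lower, beside 10.9% of all genes lower and 7.92% higher. Nothing is read from these, since the list was chosen with this comparison in view. The count of 2 became 1, Kdr, on leaving out replicate 2 of SA:ANH-vehicle or replicate 1 of the inhibitor group.

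Kdr and Angpt1 varied most over the 9 libraries, with SDs of log2 CPM of 0.51 and 0.37. The genes nearest to Kdr in pattern, by the root mean square difference of centred log2 CPM over the 9 libraries, were Shisa2 (0.123), Zfp36l1 (0.129), Cldn5 (0.136) and Opn3 (0.139). Cldn5 encodes the main tight junction protein of brain endothelium, and Zfp36l1 an RNA-binding protein that promotes mRNA decay. Cldn5 went from a mean of 39.0 CPM in NS to 30.3 CPM with vehicle and 18.6 CPM with the inhibitor, and Zfp36l1 from 24.6 to 23.2 and 13.3 CPM. Nearest to Angpt1 were Syt17 (0.111), Jhy (0.114), Vwa3a (0.121) and Pcsk4 (0.128). With Pearson's r as the measure, 1 of the 4 genes was the same for Kdr (Zfp36l1) and 0 of 4 for Angpt1. This likeness is a description over libraries that share groups.

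The remaining ligands and receptors of both families were scarce. Flt4, the VEGF-C receptor VEGFR3, stood at 3.72 ± 0.59 CPM in NS, 4.34 ± 0.31 CPM with vehicle and 4.09 ± 0.49 CPM with the inhibitor. Angpt2, the context-dependent antagonist of TEK, was at 1.13 ± 0.31, 1.45 ± 0.60 and 1.19 ± 0.12 CPM. Pgf, an FLT1 ligand, was at 2.52 ± 0.46, 2.27 ± 0.47 and 2.17 ± 0.30 CPM, and Vegfd, a ligand of VEGFR3, at 2.69 ± 0.25, 2.75 ± 0.12 and 2.62 ± 0.18 CPM in the same order. Of these, 0 of 4 passed in any comparison by edgeR, with 0 at an unadjusted p under 0.05 and 0 by DESeq2 or limma-voom. Angpt4 fell under the filter on low counts.

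Downstream of the receptors, no relay of VEGF signalling passed between inhibitor and vehicle. Of 22 relay genes tested, 0 passed by edgeR, DESeq2 and limma-voom, and 5 had an unadjusted p under 0.05. Lowest in p was Nck1, an adaptor downstream of activated KDR, at -0.26 (SE 0.07, adjusted p = 0.0829). Against NS, 1 of 22 rose with the inhibitor, Ptk2, the focal adhesion kinase, by 0.23 (SE 0.05, adjusted p = 0.0291). That call was lost without NS replicate 3, replicate 2 of SA:ANH-vehicle, or replicate 1 or 3 of the inhibitor group, with only the 6 libraries compared and with the meninges score. For vehicle against NS the lowest p was that of Nos3, the endothelial nitric oxide synthase, at -0.21 (adjusted p = 0.512), with 0 called by any of the 3 tools.

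Semaphorins and plexins that act through neuropilins gave 0 of 12 calls by edgeR in each comparison, with 1, 1 and 3 at an unadjusted p under 0.05. DESeq2 called 1 in inhibitor against NS and 0 otherwise, and limma-voom 0. Plxnd1, the plexin of vessel guidance, was at -0.19 (SE 0.06, adjusted p = 0.0774) in inhibitor against NS. Modulators and relays of the TIE receptors gave 0 of 11 by edgeR in each comparison. Itga5, an integrin subunit that binds fibronectin, had the lowest p between inhibitor and vehicle, at 0.71 (SE 0.19, adjusted p = 0.0805). There DESeq2 called 1 and limma-voom 0, and 3 had an unadjusted p under 0.05. In vehicle against NS and in inhibitor against NS, 1 and 2 had one, with 0 called by DESeq2 and limma-voom. Without SA:ANH-vehicle replicate 1, edgeR called 1 of the semaphorins and plexins in inhibitor against NS and 1 of the TIE genes between inhibitor and vehicle.

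VEGF-A is a classic target of the hypoxia-inducible factors (HIF), so a list of HIF pathway and hypoxia-induced genes was set beside it. That list was chosen with earlier results known, so its counts are a description. Of 22 tested, 2 rose and 0 fell between inhibitor and vehicle, where 0.891% of all genes rose and 1.62% fell. At an unadjusted p under 0.05 the list had 3 genes higher and 4 lower, and 11 of the 22 log2 fold changes were below 0. Ddit4, a stress-induced brake on mTORC1, had 26.6, 22.8 and 24.5 CPM with vehicle and 74.9, 55.3 and 57.5 CPM with the inhibitor. Its libraries did not overlap, and it rose by 1.34 on the log2 scale (SE 0.11, adjusted p = 9.01e-05). Pfkfb3, a regulator of glycolysis, rose by 0.32 (SE 0.07, adjusted p = 0.0214). The count was 1 in place of 2 without replicate 2 of SA:ANH-vehicle or replicate 1 or 3 of SA:ANH-KDM5Ci, and with the meninges score, and it was 4 with the replicate block. The list's median was 0.01, against 0.00 for all genes, and Vegfa itself, at -0.31, was no member of it.

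Against NS, 3 of the 22 rose with the inhibitor: Ddit4 by 1.26 (adjusted p = 0.000102), Pfkfb3 by 0.69 (adjusted p = 7.7e-05) and Adm, the vasodilator adrenomedullin, by 0.98 (adjusted p = 0.0162). Adm was scarce, at 1.21 ± 0.09 CPM in NS and 2.41 ± 0.33 CPM with the inhibitor. In that comparison 1.86% of all genes rose, and the list had 6 genes higher and 1 lower at an unadjusted p under 0.05. In vehicle against NS, 0 of 22 passed by edgeR, with Pfkfb3 lowest in p at 0.37 (adjusted p = 0.104). There 6 had an unadjusted p under 0.05, all higher, DESeq2 called 2 and limma-voom 0.

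Genes induced by VEGF or typical of sprouting tip cells gave no call in the lower direction by edgeR. Of 14 tested, 0 passed by edgeR between inhibitor and vehicle, with 2 at an unadjusted p under 0.05, 1 by DESeq2 and 0 by limma-voom. Rcan1, a calcineurin regulator that VEGF induces in endothelium and that neurons also express, was at 0.21 (SE 0.05, adjusted p = 0.0672). At an unadjusted p under 0.05, the list had 3 genes higher and 3 lower in inhibitor against NS. Aplnr, named after its value was seen, was at -1.06 there (SE 0.29, adjusted p = 0.0596). Against NS, 2 of 14 rose, Rcan1 by 0.27 (SE 0.05, adjusted p = 0.0149) and Adm, given above, where 1.86% of all genes rose. Leaving out NS replicate 3 or SA:ANH-KDM5Ci replicate 1 took away both calls, and leaving out NS replicate 2 or SA:ANH-KDM5Ci replicate 3 took away 1. With the meninges score the count was 0. In vehicle against NS 0 passed by any of the 3 tools, with 3 at an unadjusted p under 0.05.

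Of 20 transcription factors of endothelium, a class with members known to act on vascular receptor genes, 5 fell and 0 rose with the inhibitor against vehicle, where 1.62% of all genes fell. Log2 fold changes were below 0 for 17 of the 20, with a median of -0.49 against 0.00 for all genes. Nothing about the class is read from these values, since the list was chosen with earlier results known. Sox17, a factor of arterial and barrier endothelium, had 6.51, 6.27 and 6.44 CPM with vehicle and 4.13, 3.75 and 3.46 CPM with the inhibitor, a change of -0.77 on the log2 scale (SE 0.11, adjusted p = 0.0029). Its relative Sox18 was at -0.76 (SE 0.13, adjusted p = 0.00706). Ets1, a member of the ETS family whose core is marked in the promoters above, had 19.7, 18.8 and 19.2 CPM with vehicle and 14.2, 12.6 and 9.98 CPM with the inhibitor, a change of -0.65 on the log2 scale (SE 0.10, adjusted p = 0.00476). Libraries of vehicle and inhibitor did not overlap for Sox17, Sox18 or Ets1. Whether any of these factors acts on the promoters shown above was not tested.

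The forkhead factor Foxq1, a brain endothelial gene, was at -0.74 (SE 0.13, adjusted p = 0.00783), and Lef1, an effector of Wnt signalling, named after its value was seen, at -0.63 (adjusted p = 0.0358). Against NS, 6 of 20 fell and 0 rose: Sox18 by 0.83 on the log2 scale (adjusted p = 0.00316), Sox17 by 0.63 (0.00793), Ets1 by 0.56 (0.00955), Foxq1 by 0.64 (0.0158), and Lef1 (adjusted p = 0.0291) and Foxf2 (adjusted p = 0.0163), both named after their values were seen. Without NS replicate 3 that count was 3. Vehicle against NS had 0 of 20 by edgeR, DESeq2 and limma-voom, with 1 at an unadjusted p under 0.05. At an unadjusted p under 0.05 the list had 12 genes lower and 1 higher between inhibitor and vehicle. Sox7 at -0.74 (adjusted p = 0.0602), Foxf2 at -0.61 (0.0675) and Fli1 at -0.44 (0.0869), named after their values were seen, did not pass there. Erg, an ETS factor held by most endothelial cells, did not pass either, at -0.08 (SE 0.15, adjusted p = 0.861). Neither did Ets2 at -0.02 (adjusted p = 0.929) or Klf4 at 0.46 (adjusted p = 0.233).

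General endothelial markers moved in both directions. Of 22 tested between inhibitor and vehicle, 4 fell (Cldn5, Sox17, Sox18 and Slco1a4) and 2 rose (Slc2a1 and Mfsd2a), with a median of -0.09. Pecam1, at -0.01 (SE 0.11, adjusted p = 0.975), and Cdh5, at -0.20 (SE 0.09, adjusted p = 0.366), did not pass. Cldn5 fell by 0.70 (SE 0.06, adjusted p = 1.56e-05), while Slc2a1, the glucose transporter of the barrier, rose by 0.88 (SE 0.07, adjusted p = 1.33e-05) and Mfsd2a, a lipid transporter of the same cells, by 0.45 (SE 0.07, adjusted p = 0.00496). The summed level of the list ran from 603 to 631 CPM in NS, from 622 to 666 CPM with vehicle and from 634 to 735 CPM with the inhibitor, and none of its genes was at 0. Replicate 1 of the inhibitor group, at 735 CPM, was the highest, and without it Kdr gave a log2 fold change of -0.89 against vehicle. Slc2a1 is part of the summed level, and it rose by more from vehicle to inhibitor than that level did. It had 65.9 to 73.1 CPM in NS, 79.1 to 84.8 CPM with vehicle and 136 to 163 CPM with the inhibitor. Group means of Slc2a1 were 81.0 CPM with vehicle and 149 CPM with the inhibitor, and those of the sum 645 and 669 CPM. With Slc2a1 left out, the sums of inhibitor replicates 2 and 3 lay below those of all NS and vehicle libraries. That of inhibitor replicate 1 lay within the vehicle range. The endothelium score, a median over the list, ran from -0.04 to 0.04 in NS and from 0.02 to 0.13 with vehicle. In inhibitor replicates 1, 2 and 3 it was 0.18, -0.12 and -0.11. With the endothelium score as a covariate, Kdr was at -0.80.

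In vehicle against NS, 0 of the 22 endothelial markers passed by edgeR. Cldn5 was lowest in p there, at -0.36 (SE 0.05, adjusted p = 0.0579), and 3 had an unadjusted p under 0.05, with 1 called by DESeq2 and 1 by limma-voom. Mural cells, which wrap the vessels, had 2 of 13 lower between inhibitor and vehicle: Pdgfrb, the receptor for PDGF-B, at -0.45 (SE 0.08, adjusted p = 0.00858), and Anpep, a surface peptidase, at -0.74 (SE 0.18, adjusted p = 0.0492). That count was 1 without NS replicates 2 or 3, SA:ANH-vehicle replicate 1 or any of the 3 inhibitor libraries, and 1 with limma-voom, the filter at 1 CPM, no robust moderation, only 6 libraries, the replicate block or the endothelium score. With the meninges score it was 0. The mural list's summed level was 175 to 197 CPM in NS, 184 to 220 CPM with vehicle and 164 to 192 CPM with the inhibitor, with Acta2 listed at 0 in all libraries.

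Markers of meninges and fibroblasts moved with the inhibitor group as well. Of 17 tested, 4 fell against vehicle and 0 rose (Foxd1, Foxc1, Lum and Mgp, named after their values were seen), where 1.62% of all genes fell. Libraries did not overlap for 15, all lower, against 10.9% of all genes. These counts are a description, since the list was chosen with earlier results known. The list's median log2 fold change was -0.71, its summed level ran from 649 to 1003 CPM in NS, from 833 to 1048 CPM with vehicle and from 569 to 691 CPM with the inhibitor, and none of its genes was at 0. With the score of this list as a covariate, Kdr was at -1.07 against NS (adjusted p = 0.00233) and Vegfa at -0.29 (adjusted p = 0.169), which no longer passed. Against vehicle they were at -0.78 and -0.34, as a description. The endothelial transcription factors called went from 5 to 0 against vehicle and from 6 to 1 against NS. Across all genes this covariate left 24 higher and 21 lower calls between inhibitor and vehicle, from 135 and 245. The score and the group share part of their variation, and the 2 cannot be told apart fully in 9 libraries.

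Among other cell types, between inhibitor and vehicle, 1 of 15 astrocyte markers fell (Sox9, at -1.03), 1 of 13 microglial markers fell (Sall1, at -0.43), and 2 of 10 oligodendrocyte and precursor markers rose (Olig1, at 0.47, and Olig2, at 0.72), all named after their values were seen. The oligodendrocyte and precursor list was above 0 for 10 of 10 genes, with a median of 0.45 and a summed level of 2033 to 3130 CPM with vehicle and 2845 to 3672 CPM with the inhibitor. Astrocytes are a main source of VEGF-A, and their summed marker level overlapped between the groups, from 5961 to 6713 CPM with vehicle and from 6088 to 6729 CPM with the inhibitor. Markers of excitatory neurons (11 tested), interneurons (9), choroid plexus and ependyma (4), blood cells (7) and striatal neurons (10) had 0 calls in that comparison by edgeR, DESeq2 and limma-voom, with 4, 1, 1, 0 and 4 at an unadjusted p under 0.05. The striatal list was above 0 for 10 of 10 genes, with a median of 0.95 and a summed level of 197 to 261 CPM with vehicle and 226 to 557 CPM with the inhibitor. Blood cell markers had a summed level of 238 to 273 CPM in NS, 412 to 471 CPM with vehicle and 373 to 496 CPM with the inhibitor. Of 7 tested, 4 rose in inhibitor against NS (Hbb-bs, Hba-a1, Hba-a2 and Alas2), the comparison in which Kdr and Vegfa fell, and 1 in vehicle against NS (Hbb-bs, at 0.79, adjusted p = 0.00143), all named after their values were seen. Globin copies are near-identical, so the split of counts between them is uncertain. The part of these markers in the values of Kdr and Vegfa was not tested.

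**Figure D4:**
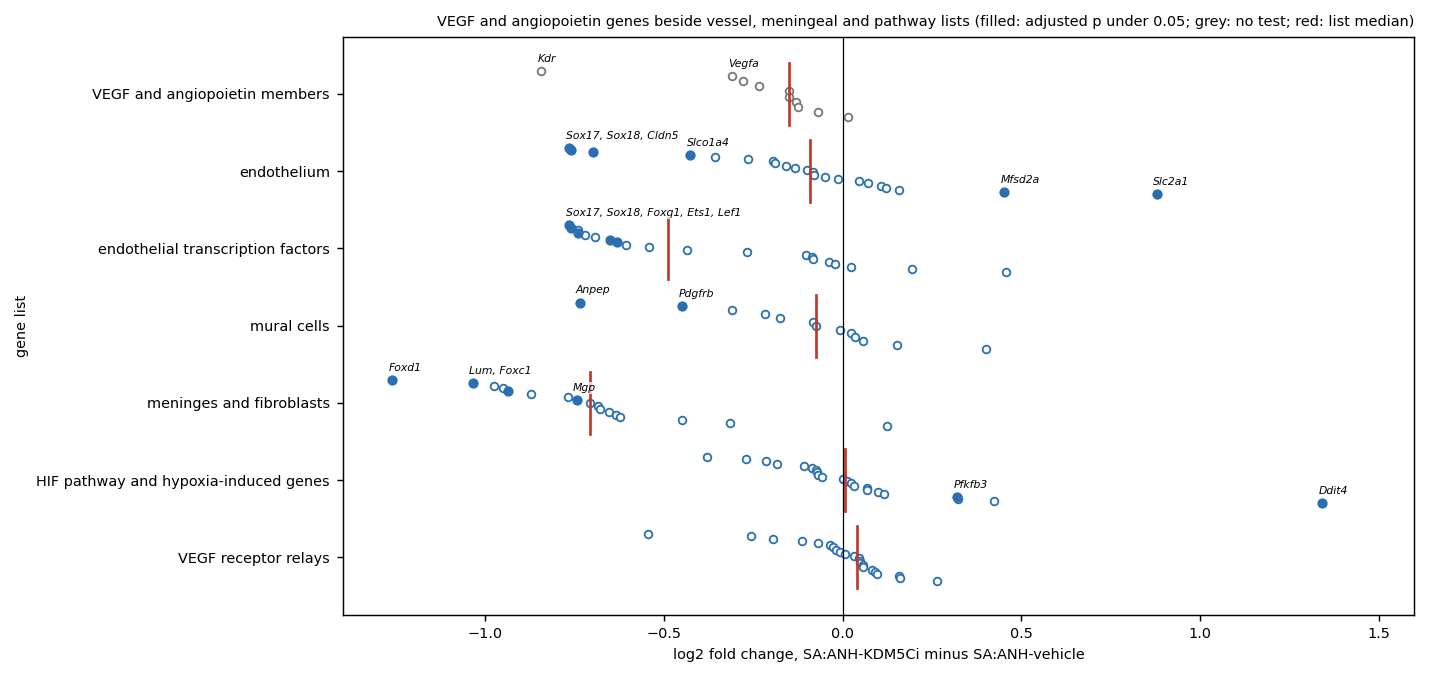
Log2 fold changes in SA:ANH-KDM5Ci against SA:ANH-vehicle (x axis) of each gene of 7 lists (rows, points spread vertically for legibility); filled points have an adjusted p under 0.05 by edgeR, grey points are drawn without a test, and red lines are list medians. Medians lie at -0.15 for the VEGF and angiopoietin genes, -0.49 for endothelial transcription factors and -0.71 for meninges and fibroblasts, and the endothelial markers have filled points on both sides of 0. All 7 lists were chosen with earlier results of these data known, so the filled points are not independent of that choice.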

How the data were processed

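Total RNA from frozen medial prefrontal cortex was made into strand-specific libraries, 3 per group, per the labels' protocols. The authors deposited expected counts per gene, of which 15.7% of those above 0 were whole numbers. The submitters' processing notes list Trimmomatic 0.32, TopHat2 2.0.13, Bowtie2 2.2.3 and the build mm10. Which tool made the counts, and whether it used strand, is not stated there. Of 36172 features, 16922 were at 0 in all libraries, and 32891 NCBI gene IDs matched RefSeq's GRCm38.p6 table. Exon lengths are unions of GENCODE exons on GRCm38.

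Expected counts were rounded and filtered with filterByExpr to 15144 genes. They were scaled by TMM (factors 0.987 to 1.01) and tested with edgeR 4.0.16's robust quasi-likelihood test in R 4.3.3, with 1 mean per group over all 9 libraries. Benjamini-Hochberg adjustment ran over all 15144 genes, at 0.05. SE is the log2 fold change divided by the square root of F. The fit was tested on simulated data. The common biological coefficient of variation was 6.95%. Replicates of a group differed by more than sampling noise. Replicate numbers did not pair the samples.

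The gene list, the pathway and marker lists and the tests were chosen with earlier results of these data known. Named genes were all 10 listed genes and the other VEGF and angiopoietin genes; up to 4 called genes of lowest p (or the 1 of lowest p) per other pathway list; up to 4 endothelial and 2 mural markers of lowest p; the 4 genes nearest in pattern to each of the 2 most variable genes, using log2 CPM (prior count 2); and Kdm5c. Each marker score takes the median of gene-centred log2 CPM over its list. Alternatives were DESeq2 1.42.0, limma-voom (limma 3.58.1), other scalings and filters, no robust moderation, only the groups compared, the replicate block, both scores as covariates and each library left out in turn.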

Additional observations from a re-analysis of the deposited data

How the results depend on the processing

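The number of the 10 genes called was 0 in SA:ANH-vehicle against NS under all 20 alternatives. In SA:ANH-KDM5Ci against NS it was 2, and 3 (with Nrp2) by DESeq2, limma-voom and without robust moderation, and 1 (Kdr) with the meninges score as a covariate; leaving out each library in turn gave 1 to 3. There Kdr passed under all 20 alternatives, from -1.17 to -1.04, and Vegfa under 15, from -0.31 to -0.21. These calls too are not independent of how the genes were chosen. In SA:ANH-KDM5Ci against SA:ANH-vehicle, a description that supports nothing, the count was 2, and 1 with the meninges score; leaving out each library gave 1 to 2. Log2 fold changes there ran from -0.93 to -0.76 for Kdr and from -0.35 to -0.28 for Vegfa. The cause of the losses was not tested.

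Replicate numbers did not pair the samples: deviations of same-numbered libraries correlated at -0.14 to 0.24 over 9 pairs, and those of other libraries at -0.25 to 0.21 over 18. With the replicate block, 0, 2 and 2 of the genes were called, with Kdr at -0.84 and -1.12 and Vegfa at -0.31 and -0.26. All-gene calls were then 161 higher and 202 lower against vehicle, and 372 and 336 against NS.

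Direction turned only for values near 0 that were not called. In vehicle against NS, with the endothelium score, Vegfc was 0.02 (0.01951), Flt1 -0.02 (-0.02152) and Tie1 -0.009751. Tie1 was -0.0002021 with DESeq2, -0.0005384 with 6 libraries and -0.001917 with the meninges score. Leaving out each library in turn gave Vegfa from -1.071e-05 to 0.09853, Vegfb from -0.02903 to 0.07935, Tek from -0.1237 to 0.006292 and Tie1 from -0.05182 to 0.09072. Between inhibitor and vehicle, Vegfb was -0.008539 without TMM, -0.005904 with the endothelium score and -0.1441 with the meninges score, and from -0.02578 to 0.06389 on leaving out a library. Flt1 was 0.0157 with the meninges score and from -0.2704 to 0.00113 on leaving out a library. Between inhibitor and NS, Vegfb was -0.1048 with the meninges score and from -0.01198 to 0.09535 on leaving out a library, and Flt1 0.08948 and from -0.1833 to 0.09162.

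The 0 endothelial markers called in vehicle against NS became 1 with DESeq2, limma-voom, 6 libraries, no TMM, no filter, the meninges score, or without SA:ANH-KDM5Ci replicate 1 or 3. The 6 called against vehicle became 2 with the meninges score, and the 6 against NS 3.

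Over all genes, vehicle against NS had 2 calls higher and 0 lower, but 43 and 38 with DESeq2, 14 and 3 with 6 libraries, 10 and 1 without TMM, 9 and 2 without the filter, 5 and 1 with the meninges score, and up to 14 and 3 with a library left out (SA:ANH-KDM5Ci replicate 3). The meninges score left 24 and 21 calls of 135 and 245 against vehicle, and 66 and 55 of 281 and 320 against NS. Leaving out a library gave from 203 to 429 calls against vehicle and from 269 to 747 against NS. Without TMM the split against vehicle was 121 and 293, and with the endothelium score 142 and 142. With 3 libraries per group, an SE of 0.24, as for Angpt1, leaves changes of that size undetectable.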
